A study of Mus musculus with 3 samples.

Results

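Wnt proteins are secreted lipid-modified ligands that bind a Frizzled receptor (Fzd genes) together with the co-receptors Lrp5 or Lrp6 and stabilise beta-catenin, or act through Frizzled on cell polarity and calcium signalling. Secreted frizzled-related proteins (Sfrp genes and Frzb) and Wif1 bind Wnt ligands outside the cell, Dickkopf proteins (Dkk1, Dkk2 and Dkk4) bind the Lrp co-receptors, and R-spondins (Rspo genes) strengthen the signal by sparing Frizzled from degradation. In the kidney the pathway is known for its part in nephron formation and in podocyte injury. The genes described here are the Wnt, Fzd, Sfrp, Dkk and Rspo genes with a numbered symbol, Frzb, Wif1, Lrp5 and Lrp6, chosen by symbol from the gene table of a droplet sequencing data set of mouse glomeruli. They were 44 of 31058 rows: 18 ligands, 12 receptors, 10 secreted inhibitors and 4 agonists (the R-spondins). Dkk3 was counted with the inhibitors by its name and family, although it does not act as the other Dickkopf proteins do.

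The study profiled cells from kidney glomeruli of healthy C57Bl/6 mice on the 10x Genomics platform, which tags the 3′ ends of transcripts and counts molecules by unique identifiers (UMIs). It set a male and a female mouse, and a female mouse without oestrogen receptor alpha in renal progenitor cells, side by side. The male and female libraries came from Pax2.rtTA;TetO.Cre;R26.Confetti mice, in which doxycycline switches on Cre recombinase in cells with Pax2 promoter activity and the Confetti reporter colours their descendants. The third library, called female ERaKO here, carried these alleles with the ERalphaKO added. All mice had doxycycline at 20 days of age and were followed to 90 days, so the controls shared induction, Cre and reporter with the knockout, and deletion was limited to cells that had expressed the Pax2 driver and their progeny. Each group was 1 library, and the labels give no number of animals, so no difference between libraries could be tested and no p-value is given.

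After filtering, 3224 male, 2828 female and 2520 female ERaKO cells were kept, with medians of 7323.5, 8831.5 and 8119 UMIs per cell. The limit of 25% mitochondrial UMIs was exceeded by 21.0%, 17.7% and 34.0% of the barcodes. The bearing of this difference on the ratios between libraries was not tested. Clustering without the Wnt pathway genes gave 26 clusters, of which 21 were named by fixed marker genes into 11 classes. Names are rebuilt from markers and stand for marker-like cells. The classes ran from podocytes (1308, 1511 and 896 cells in the male, female and female ERaKO library) and endothelial cells (777, 687 and 500) to parietal epithelial (123, 78 and 214), mesangial (193, 51 and 151) and thick ascending limb cells (18, 8 and 23). The 8 podocyte markers, which define glomeruli, summed to 21627 to 23339 counts per 1000000 UMIs of the class (CPM) in the podocyte class, and tubule and immune cells were present too. Esr1, the gene of oestrogen receptor alpha, had 4, 3 and 4 UMIs in podocytes and 5, 0 and 5 in parietal epithelial cells. It was at 10.2, 4.8 and 23.4 CPM in proximal tubule cells (13, 8 and 68 UMIs) and at 2.71, 2.47 and 3.91 CPM over all barcodes, so the library labelled ERaKO was highest in both. 3′ tags need not cover a deleted part of a gene, so these counts check no label. Levels below are UMIs of a gene scaled in this way within each library, always in the order male, female, female ERaKO. Intervals are exact 95% Poisson intervals, which cover counting error only and say nothing of how mice differ. Because 3′ tags are captured with unequal efficiency, levels were compared between cell classes and libraries and not between genes.

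The Wnt pathway genes were spread unevenly over the cell classes. Of the 44 genes, 27 reached at least 20 UMIs over all libraries in some class, and 10 CPM there in at least 1 library. These were 8 ligands, 10 receptors, 7 inhibitors and 2 agonists. For 16 of the 27, the lowest library of the highest class lay above the highest library of the next class. For the other 11 the libraries of both classes overlapped. These orders are among the named classes only. The same count was not made over all genes, and the 27 were chosen for their level in some class. It therefore describes these genes and does not set them apart from others. In 5 of the 27 genes (Wnt5a, Dkk3, Fzd3, Rspo1 and Sfrp5) an unnamed cluster had a higher mean than the highest named class. No gene was highest in T and NK cells. The remaining 17 genes did not reach this level in any class. The 10 ligands among them had 1 to 68 UMIs over all kept cells, 5 of them a single UMI, and Rspo2 and Rspo4 had 0.

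**Figure D1:**
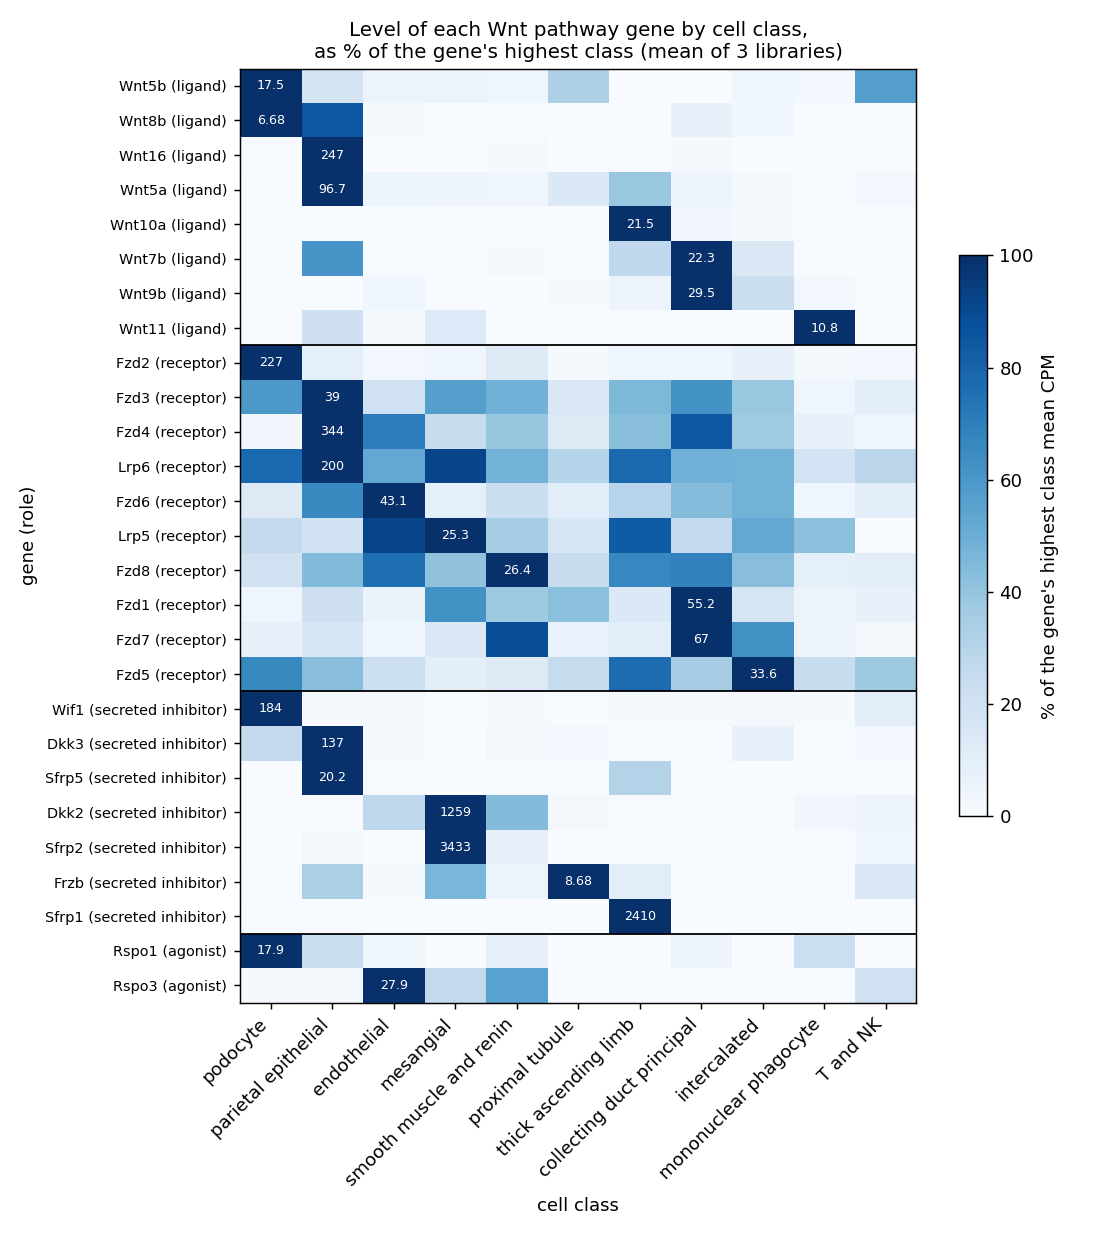
Level of the 27 described genes (rows, grouped by role) in 11 cell classes (columns), as the percentage of the gene's highest named class, from the mean CPM of the 3 libraries; the number printed in the darkest cell is that mean CPM. Among these named classes, Wnt16, Wif1, Fzd2, Sfrp2 and Sfrp1 each stand almost alone in 1 class, whereas Lrp6 and Fzd4 spread over many.

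Wnt16, Wif1, Fzd2, Sfrp2 and Sfrp1 combined a mean of at least 100 CPM in their highest named class with at least 5 times the level of the next named class. The promoters of the 3 of them listed in the RefSeq table (GRCm38.p6) are shown because these genes mark 3 different glomerular cell classes. Each is the 250 bases before the annotated start, written 5′ to 3′ on the plus strand, which is the strand of all 3 genes. Wnt16 (parietal epithelial cells) starts after chr6:22287977-22288226, Wif1 (podocytes) after chr10:121033754-121034003 and Sfrp2 (mesangial cells) after chr3:83766071-83766320. In the GENCODE M21 annotation Wif1 starts earlier, at 121033960, so the end of its window lies within the gene there. Capitals mark matches of letters only. For Wnt16 these are 2 matches to the CCAAT box (CCAAT), 125 and 74 bases before the start. For Wif1 it is 1 match to the TATA box letters (TATAAA, here on the opposite strand as TTTATA), 232 bases before the start.
Wnt16: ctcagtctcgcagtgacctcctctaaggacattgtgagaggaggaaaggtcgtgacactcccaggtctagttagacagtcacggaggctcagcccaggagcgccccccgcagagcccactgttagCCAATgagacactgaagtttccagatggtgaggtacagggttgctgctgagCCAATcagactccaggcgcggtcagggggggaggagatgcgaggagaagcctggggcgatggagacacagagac
Wif1: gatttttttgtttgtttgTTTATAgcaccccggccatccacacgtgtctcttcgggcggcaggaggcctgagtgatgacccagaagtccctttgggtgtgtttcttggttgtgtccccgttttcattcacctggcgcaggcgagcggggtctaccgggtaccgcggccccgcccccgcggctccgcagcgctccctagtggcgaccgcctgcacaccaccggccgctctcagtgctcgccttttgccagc
Sfrp2: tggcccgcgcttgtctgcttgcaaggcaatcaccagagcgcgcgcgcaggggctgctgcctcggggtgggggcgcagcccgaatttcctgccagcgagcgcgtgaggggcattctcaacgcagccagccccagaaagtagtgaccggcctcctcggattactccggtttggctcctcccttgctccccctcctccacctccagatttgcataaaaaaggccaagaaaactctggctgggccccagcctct

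The table held 31 promoters of 28 of the 44 genes. Their median GC content was 66.8%, beside 52.4% over all 32851 promoters, and they held a median of 22 CpG dinucleotides, beside 6. On both strands, CCAAT was found in 10 of the 31 promoters and in 33.8% of all, and TATAAA in 5 of 31 and 12.4% of all. CTTTGAT, the core bound by the TCF and LEF factors of the pathway itself, was in the promoters of Wnt11 and Wnt5b (2 of 31, beside 3.21% of all). GCGTGGG, a site type of EGR factors and of the podocyte factor WT1, was in 5 of 31 promoters, those of Dkk2, Rspo4, Wnt1, Wnt5b and Wnt6, beside 4.3% of all. These are matches of letters and show no binding.

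Parietal epithelial cells, the flat cells that line Bowman's capsule, were the highest named class of 2 of the 8 described ligands, as were podocytes and collecting duct principal cells. Wnt16, a ligand with beta-catenin dependent and independent actions, stood there at 236, 240 and 265 CPM, with intervals of 214 to 259, 212 to 270 and 250 to 281. The libraries lay close together, and no other named class exceeded 7.87 CPM in any library. Parietal epithelial cells held 86.6% of the Wnt16 UMIs. Outside the named classes, 111 UMIs (5.2%) were in a cluster of 96 cells led by Dcn and Col6a1. Another 97 UMIs (4.54%) were in a cluster of 203 cells led by Ugt2b37 and Slc4a4. A Wnt16 UMI was seen in 82.1%, 84.6% and 89.7% of parietal epithelial cells, or 56.9%, 62.8% and 65.0% after each cell was thinned to 4000 UMIs. In podocytes the share with a Wnt16 UMI was 0.612%, 0.331% and 0.67% at median depths of 7739, 9176 and 7341.5 UMIs, against 9406, 9049.5 and 11922 in the parietal epithelial cells. Wnt5a, the best known ligand of the beta-catenin independent branch, was highest among named classes in the same cells at 96.5, 88.0 and 106 CPM. Its next named class was the thick ascending limb, at 19.8, 45 and 47.3 CPM, below every parietal value. Outside the named classes, Wnt5a was at 207, 0 and 233 CPM in a cluster of 30 cells led by Ly6d and Upk3a, with 116 UMIs in all, and at 129, 63.7 and 146 CPM in a cluster of 96 cells led by Dcn and Col6a1. Podocytes held almost no Wnt5a, with 2, 4 and 4 UMIs.

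Podocytes, the cells that form the filtration slits, had other ligands at low levels. Wnt5b, a close relative of Wnt5a, stood at 15.8, 18.6 and 18 CPM in podocytes, which held 84.1% of its UMIs over all cells. Wnt8b, a ligand of the beta-catenin branch, was at 6.28, 6.05 and 7.69 CPM there. Both levels differed little between the libraries. In tubule classes, Wnt10a was at 17.0, 25 and 22.6 CPM in thick ascending limb cells, on 6, 5 and 11 UMIs. Wnt9b, required for tubule induction in the embryo, was highest in principal cells of the collecting duct at 28.7, 42.1 and 17.8 CPM. Wnt7b, a collecting duct ligand, stood at 22.5, 26.5 and 17.8 CPM in the same cells and at 17.4, 9.58 and 13.6 CPM in parietal epithelial cells. Wnt11 reached a mean of 10 CPM only in mononuclear phagocytes, on 9, 9 and 2 UMIs.

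**Figure D2:**
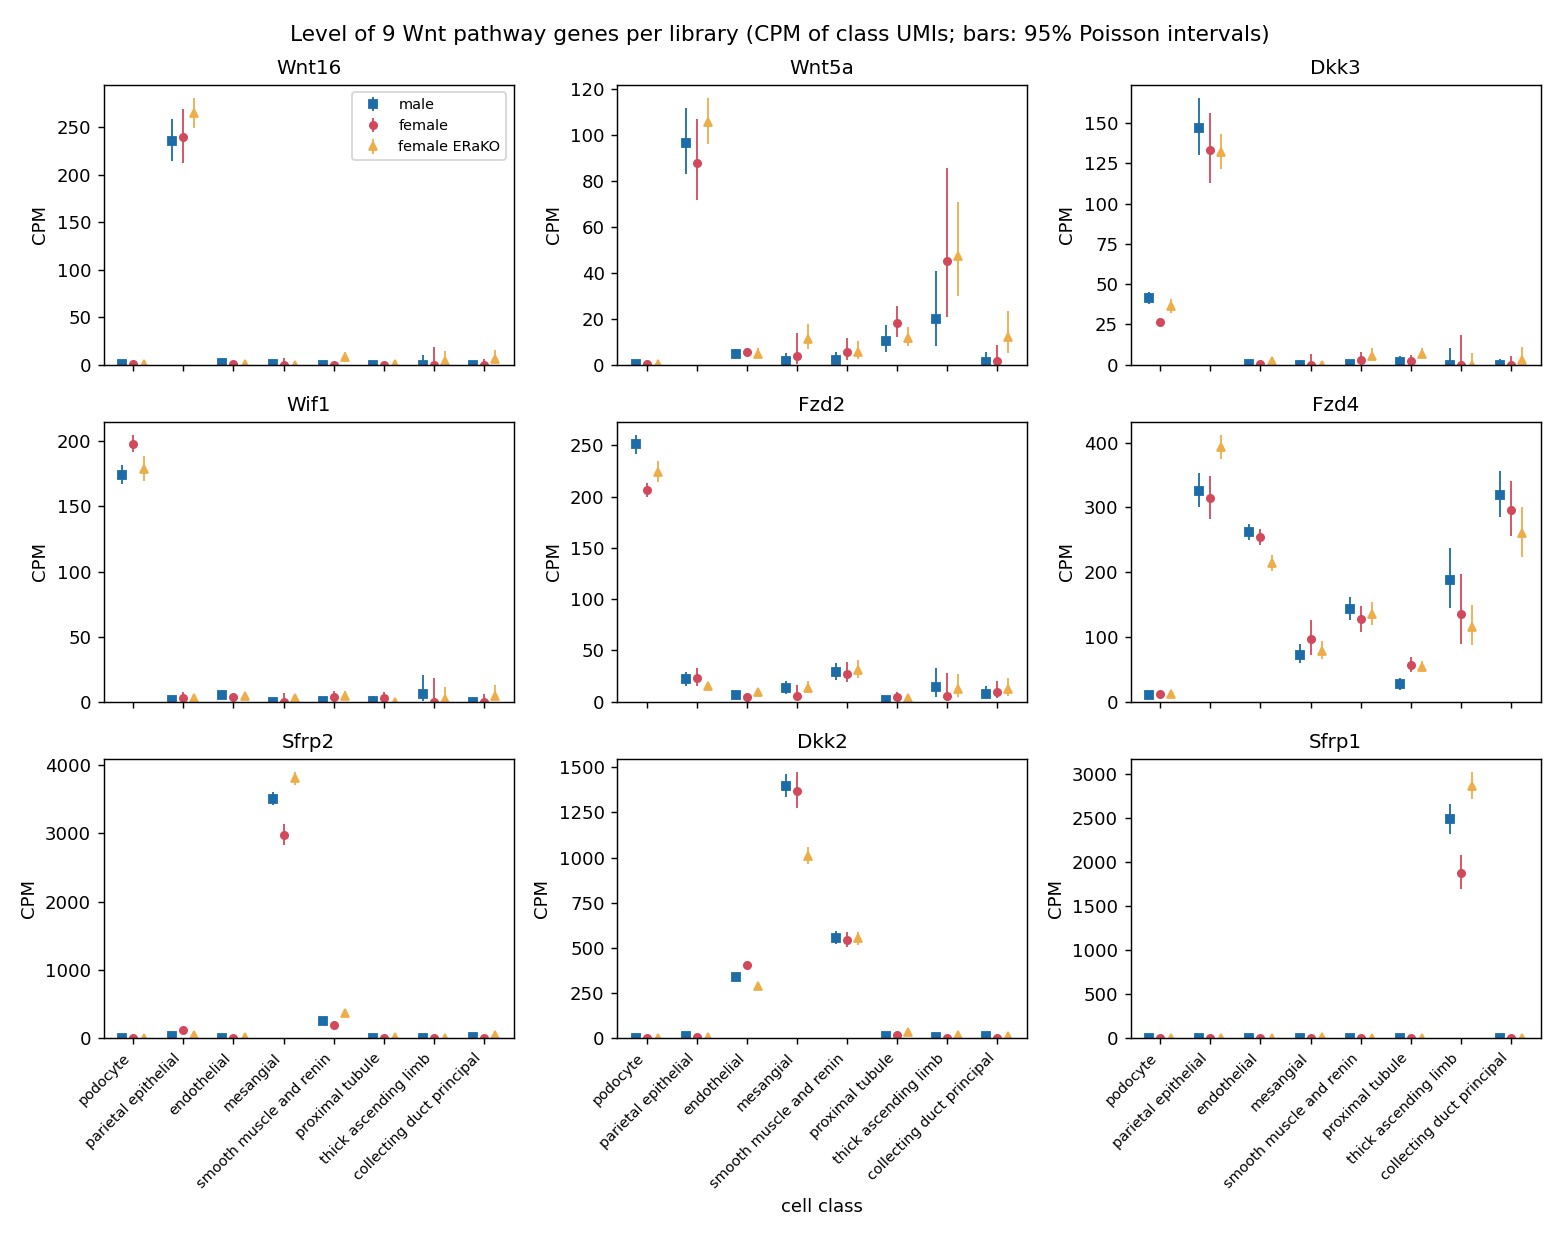
CPM of 9 genes in 8 cell classes, with 1 marker per library (square male, circle female, triangle female ERaKO) and bars for exact 95% Poisson intervals; each panel has its own linear axis. The 3 libraries place each gene in the same classes: Wnt16, Wnt5a and Dkk3 in parietal epithelial cells, Wif1 and Fzd2 in podocytes, Sfrp2 and Dkk2 in mesangial cells and Sfrp1 in the thick ascending limb.

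Frizzled receptors divided into one with a sharp podocyte pattern and others with a broad one. Fzd2 was at 251, 207 and 224 CPM in podocytes, with intervals of 242 to 260, 200 to 214 and 214 to 235. These intervals put the male library above both others, by less than 1.5-fold. The next class, smooth muscle and renin cells, was at 28.7, 27.3 and 30.9 CPM. A Fzd2 UMI was found in 82.0%, 82.3% and 79.9% of podocytes (60.0%, 54.6% and 58.3% after thinning), and in 3.86%, 2.77% and 5.0% of endothelial cells at median depths of 6002, 7538 and 8237.5 UMIs. Fzd4, the receptor that Norrin also uses in blood vessels, had the opposite pattern. It was at 326, 314 and 393 CPM in parietal epithelial cells, 319, 296 and 260 in collecting duct principal cells and 261, 254 and 214 in endothelial cells, but only 10.8, 11 and 11.5 in podocytes. The first 2 of these classes overlapped between libraries.

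Among the other receptors, Fzd6, which acts mainly in planar polarity, was highest in endothelial cells at 43.0, 41.5 and 45 CPM, above every library of the parietal epithelial class (27.4, 37.5 and 20.0). Fzd3, another polarity receptor, was highest in parietal epithelial cells at 43.2, 34.0 and 39.7 CPM. Fzd1 was highest in collecting duct principal cells at 46.0, 78.0 and 41.6 CPM, followed by mesangial cells at 29.5, 35.9 and 37.8. Fzd7 stood at 63.4, 84.2 and 53.5 CPM in principal cells and 64.5, 52.2 and 61.3 in smooth muscle and renin cells, and the libraries of those classes overlapped. The same held for Fzd5 (intercalated cells first), Fzd8 (smooth muscle and renin cells first) and Lrp5 (mesangial cells first), whose first and second classes could not be ordered. The co-receptor Lrp6 was found in every class, from a mean of 36.8 CPM in mononuclear phagocytes to 200 in parietal epithelial cells, and 167, 151 and 151 CPM in podocytes.

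Of the 7 described secreted inhibitors, 5 were separated from their next named class in every library, and Frzb and Sfrp5 were not. No share over all genes stands beside this count either. Sfrp2 was at 3508, 2983 and 3806 CPM in mesangial cells, the contractile support cells of the capillary tuft, with intervals of 3410 to 3608, 2838 to 3134 and 3713 to 3901. A UMI of Sfrp2 was present in 99.5%, 100% and 100% of mesangial cells (98.4%, 100% and 99.3% after thinning) and in 1.68%, 0.86% and 1.23% of podocytes. The next class, smooth muscle and renin cells, was at 248, 191 and 372 CPM, and within it the cluster led by Ren1, the renin gene, was at 551, 595 and 585 CPM. Dkk2 had the same first and second classes, at 1397, 1370 and 1010 CPM in mesangial cells and 557, 544 and 553 in smooth muscle and renin cells. In the cluster led by Ren1 it stood at 1157, 1359 and 868 CPM.

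Dkk2 was also abundant in endothelial cells, at 337, 407 and 292 CPM, where Sfrp2 was at 5.12, 3.02 and 17.2. Endothelial cells were not alike in it. Dkk2 was at 488, 677 and 439 CPM in the cluster led by Kdr and Ehd3, which are known as markers of the glomerular capillary, and at 781, 717 and 513 in a smaller cluster led by Esm1 and Dll4. It was at 153, 176 and 186 CPM in the cluster with Sox17 and Fbln5 among its leading genes, and at 182, 225 and 196 in the one led by Calca and Fabp4. Rspo3, the R-spondin of blood vessels, was placed the other way round. It was at 49.2, 46.6 and 68.9 CPM in the cluster with Sox17 and Fbln5 and at 1.56, 2.54 and 3.1 in the cluster led by Kdr and Ehd3. Fzd6 was likewise lower in the latter cluster (20.2, 16 and 29.2 CPM) than in the former (67.0, 64.3 and 60.7). For each of these 3 genes the cluster led by Kdr and Ehd3 and the one with Sox17 and Fbln5 did not overlap between libraries, whereas the Dkk2 values of the former overlapped those of the cluster led by Esm1, and those of the latter overlapped the cluster led by Calca.

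Wif1, a Wnt-binding inhibitor, was at 174, 198 and 179 CPM in podocytes, which held 96.0% of its UMIs. The intervals, 167 to 182, 192 to 205 and 170 to 188, put the female library highest by a margin well below 1.5-fold. A UMI of Wif1 was seen in 68.7%, 77.3% and 67.1% of podocytes (48.6%, 51.0% and 46.7% after thinning), and in 2.32%, 1.6% and 2.6% of endothelial cells. Among named classes, Dkk3 was highest in parietal epithelial cells at 147, 133 and 132 CPM and second in podocytes at 41.5, 26.4 and 36.4. In the unnamed cluster led by Dcn and Col6a1 it stood at 274, 350.4 and 410.5 CPM. Sfrp1 stood at 2486, 1875 and 2868 CPM in the thick ascending limb cells, on 877, 375 and 1394 UMIs. That cluster held only 18, 8 and 23 cells, and Pappa2 and Nos1, which are known from the macula densa, were among its 10 leading genes. No other named class had a mean of Sfrp1 above 9.2 CPM. Thick ascending limb cells held 73.1% of its UMIs, and an unnamed cluster of 62 cells held 15.6% (566 UMIs). Sfrp5 was found mainly outside the named classes: 78.7% of its UMIs were in an unnamed cluster led by Ugt2b37, Slc4a4 and Slc5a2, where it was at 84.4, 68.3 and 163 CPM. Frzb was highest in proximal tubule cells, at 16.4, 0 and 9.62 CPM.

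The agonist Rspo1, which acts through the Lgr receptors, was highest among named classes in podocytes at 19.4, 20.0 and 14.3 CPM, with intervals of 17.0 to 22.1, 17.9 to 22.2 and 11.8 to 17.1. The female ERaKO library was lowest, with an interval below that of the female library. The unnamed cluster led by Dcn and Col6a1 was at 81.4, 106 and 89.6 CPM, on 63 UMIs in all. Rspo3 in endothelial cells was at 24.4, 23.0 and 36.2 CPM.

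Podocytes themselves were of more than one kind for these genes. One podocyte cluster, led by Cst12, Igfbp6 and Pla2g7, held 13.5%, 13.2% and 13.3% of podocytes. Of the 15 Wnt pathway genes with at least 20 UMIs in podocytes of each library, 7 were at least 1.5-fold higher in this cluster than in the other podocytes in all 3 libraries, and Wif1 was lower in all 3. Over all 10203 genes with as many UMIs, 6.81% were higher and 1.94% lower in all 3 libraries. The genes were left out of the clustering, but they may follow genes that were in it, so these values are a description. Dkk3 was at 318, 196 and 286 CPM in the cluster and at 0.961, 1.64 and 0.992 in the other podocytes, so that its podocyte signal came almost wholly from this cluster. Rspo1 was at 52.5, 55.7 and 72.9 CPM against 14.6, 14.8 and 5.95. The ligands Wnt5b (33.4, 36.8 and 42.9 against 13.3, 16 and 14.5 CPM) and Wnt8b (17.7, 13.5 and 24.0 against 4.61, 4.97 and 5.38) were also higher there, as were the receptors Fzd1, Fzd3 and Fzd4. Wif1 was at 113, 104 and 63.9 CPM in the cluster and at 183, 212 and 195 elsewhere. Fzd2 was lower too, at 165, 165 and 150 against 264, 213 and 235 CPM, but by less than 1.5-fold in the female library. The podocyte marker Nphs1 remained at 1111, 1300.5 and 837 CPM in the cluster, against 1526, 1705 and 1251.

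**Figure D3:**
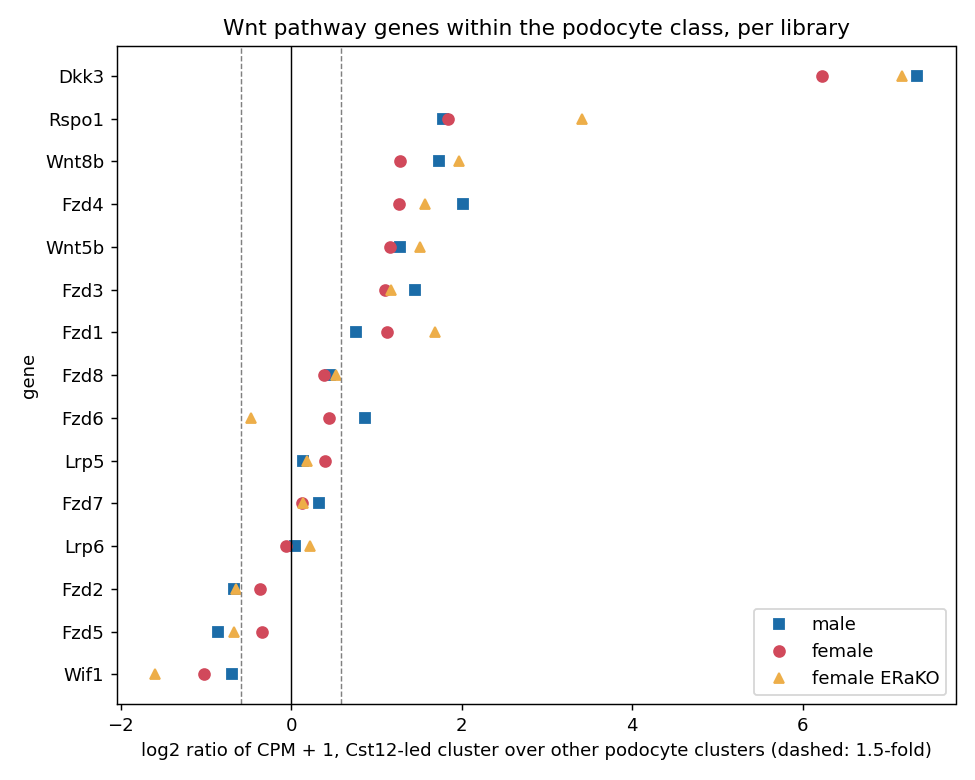
Log2 ratio of CPM + 1 between the podocyte cluster led by Cst12 and the other podocyte clusters for 15 genes, with 1 marker per library and dashed lines at 1.5-fold. Dkk3, Rspo1, Wnt8b, Fzd4, Wnt5b, Fzd3 and Fzd1 lie beyond the right line in all 3 libraries and Wif1 beyond the left one.

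Male and female libraries were compared within 6 classes, as the log2 ratio of CPM + 1. A gene counted as different at 1.5-fold or more with at least 20 UMIs over both libraries, with no test behind it. In podocytes 4 of 20 measured Wnt pathway genes passed, beside 3.7% of all 11855 genes (2% higher, 1.7% lower), with a median ratio of -0.02 for the Wnt genes and 0.02 for all. Dkk3 was higher in the male, at 495 and 462 UMIs (41.5 and 26.4 CPM, log2 0.63, interval 0.47 to 0.84). This difference lay in the cluster led by Cst12, at 318 and 196 CPM. It turned to -0.43 when that cluster was left out, on only 10 and 25 UMIs. Fzd7 was lower in the male, at 43 and 108 UMIs (log2 -0.64, interval -1.32 to -0.25). Sfrp1 (42 and 31 UMIs, log2 0.71, interval 0.29 to 1.71) and Sfrp2 (24 and 17 UMIs, log2 0.61, interval 0.09 to 2.04) were higher, and at 3.52 CPM or less both were far below the level of their own highest class. The mesangial marker list summed to 58.0 and 46.4 CPM and the thick ascending limb list to 228 and 179 CPM in the same podocytes, 6 of 6 genes present in each list. The erythroid list summed to 711 and 8.74 CPM. Their part in these ratios was not tested.

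In the male parietal epithelial cells 4 of 17 genes passed, beside 15.8% of all genes (10.3% higher, 5.48% lower). Sfrp2 was lower in the male, at 40.1 and 125 CPM (76 and 144 UMIs, log2 -1.62, interval -2.07 to -1.24). In the female library those UMIs came from 12 of 78 cells, 1 of which held 27.8% of them. The smooth muscle and renin list, whose class is second for Sfrp2, summed to 1291 and 1647 CPM, the mesangial list to 92.3 and 119 CPM and the descending thin limb list to 695 and 50.5 CPM in these cells. Their part was not tested. Sfrp5 (23 and 36 UMIs, log2 -1.30, interval -2.19 to -0.58) was lower and became 0.81 when the clustering was finer. Wnt7b (33 and 11 UMIs) was higher by log2 0.80, with an interval of -0.16 to 1.99. Wnt8b had 31 UMIs in the male and 0 in the female library, at least 6.26-fold more than a female floor of 3 counts, but 51.6% of the male UMIs were in 1 cell and the ratio was -0.30 with cells limited to 10% mitochondrial UMIs. Wnt16, Wnt5a and Dkk3, which have their highest named class here without overlap, did not pass.

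In endothelial cells 2 of 18 genes passed (6.15% of all genes, 2.85% higher and 3.3% lower), Sfrp1 (53 and 25 UMIs, log2 1.0, interval 0.48 to 1.94) and Sfrp2 (33 and 21 UMIs, log2 0.60, interval -0.07 to 1.62). For Sfrp1, 1 male cell held 37.7% of the UMIs. In mesangial cells Fzd2 alone of 8 passed (18.8% of all genes, 9.33% higher and 9.48% lower), on 18 and 3 UMIs, with an interval of -0.58 to 3.60. In smooth muscle and renin cells 2 of 12 passed (15% of all genes, 7.27% higher and 7.76% lower). Rspo3 was lower in the male (17 and 32 UMIs, 9.22 and 25.7 CPM, log2 -1.39, interval -2.42 to -0.59) and Fzd3 was higher (51 and 21 UMIs, log2 0.68, interval -0.05 to 1.52). For Rspo3 the gap lay in the cluster led by Ren1, at 10.8 and 59.8 CPM, with 100 male and 35 female cells. Over the class, 16 of 158 female cells had a Rspo3 UMI, and 1 of them held 25% of the female UMIs.

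Proximal tubule cells differed most between these libraries over all genes, with 33.4% of 8570 genes past the threshold (19.9% higher, 13.6% lower), and 3 of 6 Wnt pathway genes passed. The classes were not made of the same cells: 95 of the 96 male cells were in 1 cluster that held 2 female cells. The median of all genes was shifted by 0.15 in this comparison. Frzb had 21 male UMIs and 0 female, at least 9.11-fold above the female floor. Fzd4 (34 and 94 UMIs, 26.6 and 56.4 CPM, log2 -1.06, interval -1.70 to -0.51) and Wnt5a (13 and 30 UMIs, log2 -0.77, interval -1.89 to 0.16) were lower in the male.

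**Figure D4:**
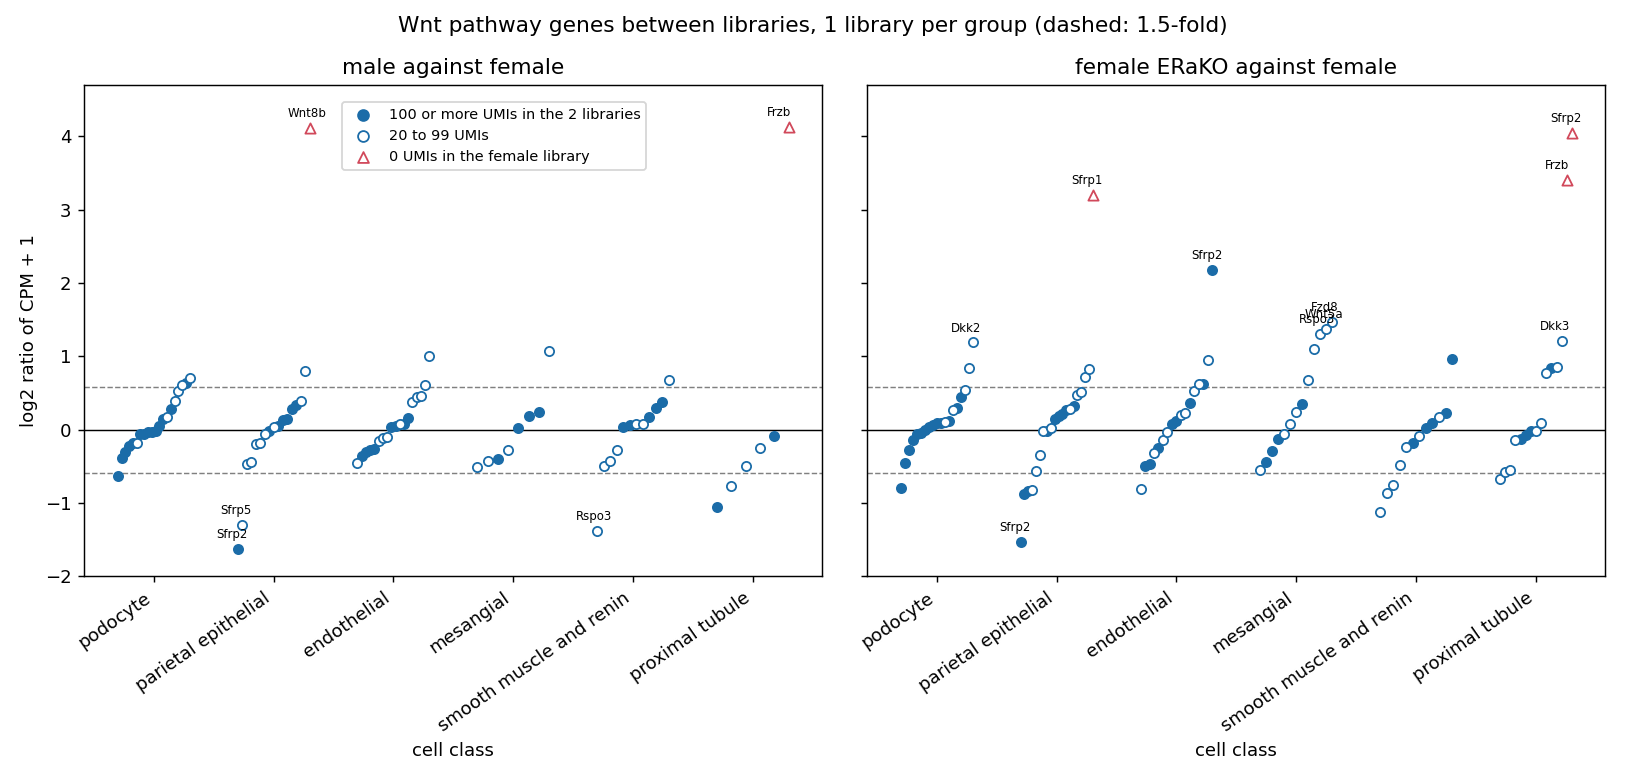
Log2 ratio of CPM + 1 for every measured Wnt pathway gene in 6 cell classes, male against female (left) and female ERaKO against female (right), with dashed lines at 1.5-fold. Filled circles have 100 or more UMIs over both libraries, open circles 20 to 99, and triangles 0 in the female library, where the position depends on the added 1 CPM; most points beyond the lines are open circles or triangles.

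The female ERaKO library was set against the same female library, so a high or low female value enters both comparisons. In podocytes 3 of 19 genes passed, beside 6.7% of all 11713 genes (3.72% higher, 2.98% lower), with median ratios of 0.09 and 0.00. Lrp5, the co-receptor, was lower in the female ERaKO library at 4.34 and 8.28 CPM (35 and 145 UMIs, log2 -0.80, interval -1.51 to -0.39). The male podocytes were at 6.53 CPM. Dkk2 (25 and 14 UMIs, log2 1.19, interval 0.96 to 3.01) and Fzd1 (27 and 25 UMIs, log2 0.84, interval 0.39 to 2.08) were higher, at 3.35 CPM or less. Mesangial markers summed to 76.9 CPM in female ERaKO podocytes and to 46.4 in female ones, the smooth muscle and renin list to 562 and 257 CPM and the erythroid list to 578 and 8.74 CPM. Their part in the Dkk2 value was not tested. Wif1, Fzd2 and Lrp6, with 1213 or more UMIs in each library, stayed within 1.5-fold.

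In parietal epithelial cells 7 of 20 genes passed, beside 16.1% of all genes. Of these 3 were higher and 4 lower (9.62% and 6.53% of all genes). Sfrp2 was again lowest against the female library, at 42.8 and 125 CPM (182 and 144 UMIs, log2 -1.53, interval -1.88 to -1.23), close to the male value of 40.1. Mesangial markers summed to 114 CPM here and the smooth muscle and renin list to 3695, against 119 and 1647 CPM in the female library. Their part was not tested. Fzd6 was lower at 20.0 and 37.5 CPM (85 and 43 UMIs, log2 -0.87, interval -1.45 to -0.34), and so were Sfrp5 (73 and 36 UMIs, log2 -0.83, interval -1.47 to -0.25) and Fzd1 (36 and 18 UMIs, log2 -0.82, interval -1.74 to 0.01). The Sfrp5 ratio turned to 0.59 when doublets were kept and to 2.36 with finer clustering. Sfrp1 had 35 UMIs and 0, at least 3.15-fold above the floor, with 82.9% of them in 1 cell. Wnt5b (23 and 3 UMIs, log2 0.83) and Lrp5 (27 and 4 UMIs, log2 0.71) were higher, with intervals that included 0. Wnt16, at 265 and 240 CPM, and Wnt5a, at 106 and 88.0 CPM, did not pass.

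In endothelial cells 5 of 17 genes passed, beside 8.73% of all genes (4.62% higher, 4.11% lower). Rspo3 was higher in the female ERaKO library at 36.2 and 23.0 CPM (185 and 160 UMIs, log2 0.63, interval 0.34 to 0.96), with UMIs in 105 of 500 and 97 of 687 cells. The cluster with Sox17 and Fbln5, where Rspo3 is highest, made up 37.0% of the female ERaKO and 26.6% of the female endothelial cells, and within it Rspo3 was at 68.9 and 46.6 CPM. Sfrp2 was at 17.2 and 3.02 CPM (88 and 21 UMIs, log2 2.18, interval 1.81 to 3.27), from 15 of 500 and 14 of 687 cells, with 22.7% of the female ERaKO UMIs in 1 cell. The mesangial list summed to 210.5 CPM in these cells and to 185 in the female ones, and the smooth muscle and renin list to 796 and 185 CPM. Their part was not tested. Fzd2 (46 and 29 UMIs, log2 0.95, interval 0.40 to 1.83) and Fzd7 (21 and 16 UMIs, log2 0.63, interval -0.18 to 1.87) were higher and Fzd5 (26 and 67 UMIs, log2 -0.81, interval -1.64 to -0.25) lower. The Fzd2 ratio was -0.15 when doublets were kept.

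In mesangial cells 5 of 13 genes passed, all higher, beside 19% of all genes (11.2% higher, 7.81% lower). They were Fzd8 (29 and 3 UMIs, log2 1.47), Fzd2 (22 and 3 UMIs, log2 1.09), Sfrp1 (21 and 4 UMIs, log2 0.67), Wnt5a (19 and 2 UMIs, log2 1.38) and Rspo3 (18 and 2 UMIs, log2 1.31), and each of these intervals included 0. All 5 reached 20 UMIs mainly through the female ERaKO library, which held 1665690 UMIs in this class against 529928 in the female one. The filter thus favoured genes high in that library, and their shared direction is no result. The endothelial list summed to 3223 and 3321 CPM in these cells, and its part was not tested. The abundant Dkk2 (1010 and 1370 CPM) and Sfrp2 (3806 and 2983 CPM) stayed within 1.5-fold there. In smooth muscle and renin cells 4 of 12 passed, beside 18.2% of all genes (7.27% higher, 10.9% lower). Sfrp2 was at 372 and 191 CPM (662 and 238 UMIs, log2 0.96, interval 0.75 to 1.18), from 148 of 250 and 47 of 158 cells. The cluster led by Ren1 made up 44.8% of the female ERaKO and 22.2% of the female cells of this class, and within it Sfrp2 was at 585 and 595 CPM. In the other clusters it was at 57.1 and 6.77 CPM (led by Rgs5 and Rergl, 33 and 5 UMIs) and 389 and 233 CPM (led by Myh11 and Acta2). Rspo3 was lower, at 11.2 and 25.7 CPM (20 and 32 UMIs, log2 -1.12, interval -2.08 to -0.34), and Fzd6 (12 and 15 UMIs, log2 -0.75) and Lrp5 (11 and 15 UMIs, log2 -0.86) were lower, with intervals that included 0.

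In proximal tubule cells 7 of 15 genes passed, beside 19.5% of all genes (8.66% higher, 10.9% lower), and 6 of the 7 were higher. The class held 2909720 UMIs in the female ERaKO and 1666160 in the female library. The minimum of 20 UMIs over both thus favoured genes high in the former, and the shared direction is no result. Dkk2 was at 35.1 and 19.2 CPM (102 and 32 UMIs, log2 0.84, interval 0.28 to 1.49) and was -0.035 with coarser clustering. Frzb had 28 UMIs and 0, at least 5.34-fold above the floor. Sfrp2 had 45 UMIs and 0, at least 8.59-fold above the floor, but 73.3% of them were in 1 cell and only 3 cells had any. In the same cells the mesangial list summed to 50.9 and 8.4 CPM, the smooth muscle and renin list to 200.02 and 16.2 CPM and the erythroid list to 2114 and 4.8 CPM, and their part in the Dkk2 and Sfrp2 values was not tested. Fzd5 (37 and 11 UMIs, log2 0.85), Fzd3 (26 and 8 UMIs, log2 0.78) and Dkk3 (20 and 4 UMIs, log2 1.21) were higher and Lrp5 (11 and 11 UMIs, log2 -0.67) lower, with intervals that included 0.

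The rest of the pathway gave a context for these genes. Over all genes, 3.7% passed between male and female podocytes (2% higher, 1.7% lower). Between female ERaKO and female podocytes 6.7% passed (3.72% higher, 2.98% lower). In podocytes, no gene of the 8 measured Wnt secretion and receptor partners passed in either comparison. Among them Wls, which carries Wnt ligands to the cell surface, was at 417, 396 and 389 CPM, Kremen1, a partner of Dickkopf proteins, at 73.1, 75.2 and 79.8, and Lgr4, the R-spondin receptor, at 123, 124 and 119. None of the 19 measured genes of the beta-catenin machinery passed between male and female podocytes, and none of 18 between female ERaKO and female. Of the planar polarity list 1 of 10 was higher in male podocytes, Prickle1 (72 and 59 UMIs, log2 0.69), and none of 10 passed in female ERaKO podocytes, and the medians of all 5 lists in both podocyte comparisons lay between -0.06 and 0.42. Of the beta-catenin target list, 0 of 7 passed between male and female podocytes, and 1 of 6 was higher in female ERaKO podocytes, Ccnd1 (cyclin D1), at 27.9 and 12.6 CPM (225 and 221 UMIs, log2 1.09). Axin2, a widely used target gene, was at 1.5 CPM or less in podocytes and at 11, 14 and 11.3 in endothelial cells. Among other extracellular modulators 2 of 5 were higher in male podocytes, Gpc4 (134 and 107 UMIs, log2 0.78, interval 0.50 to 1.26) and Sostdc1 (25 and 12 UMIs, log2 0.88, interval 0.57 to 2.74). Of 4 in the female ERaKO comparison 1 was lower: Tpbg was at 15.4 and 34.7 CPM in female ERaKO and female podocytes (log2 -1.12, interval -1.46 to -0.89).

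In endothelial cells, Sost, a secreted inhibitor that binds the Lrp co-receptors, was at 145, 76.8 and 49.4 CPM. It was higher in the male (log2 0.91, interval 0.76 to 1.07) and lower in the female ERaKO library (log2 -0.62, interval -0.86 to -0.42) than in the female. Lgr5, an R-spondin receptor and target gene, was at 27.6, 43.4 and 22.1 CPM there, lower than in the female library in both comparisons (log2 -0.63 and -0.94). The cluster led by Kdr and Ehd3 made up 51.2%, 52.1% and 36.2% of endothelial cells. The one with Sox17 and Fbln5 made up 27.0%, 26.6% and 37.0%. The part of this in the Sost and Lgr5 ratios was not tested. Of the endothelial target list 2 of 11 were lower and none higher in the male, beside 3.3% and 2.85% of all genes. In female ERaKO endothelial cells 2 of 12 were higher and 4 lower, beside 4.62% and 4.11% of all genes. The median was -0.19 beside 0.04 over all genes. The higher ones were Sp5 (33 and 26 UMIs) and Tnfrsf19 (16 and 4). The lower ones were Bambi (283 and 639 UMIs), Lgr5 (113 and 301), Nkd2 (7 and 23) and Myc (5 and 20). In parietal epithelial cells, 1 of 18 genes of the beta-catenin machinery was higher and none lower in each comparison. There 2 planar polarity genes were higher and 1 lower (of 11 in the male, of 12 in the female ERaKO library). Over all genes, 10.3% were higher and 5.48% lower in the male, and 9.62% and 6.53% in the female ERaKO library. Ror1, a receptor of Wnt5a, was at 39.6, 52.3 and 47.2 CPM in parietal epithelial cells, and Gpc3, a glypican that binds Wnt ligands, at 163, 154 and 190.3. In mesangial, smooth muscle and renin and proximal tubule cells, each of the 5 lists had 3 to 19 measured genes. Of these, 0 to 3 were higher and 0 to 3 lower in either comparison, beside 15% to 33.4% of all genes in either direction. In male proximal tubule cells 2 of 3 target genes were higher, Ccnd1 (146 and 49 UMIs, log2 1.92) and Notum (28 and 16 UMIs, log2 1.11), beside 19.9% of all genes. The largest ratio was that of Sost in female ERaKO mesangial cells (6 and 20 UMIs, log2 -3.07). The endothelial marker list summed to 1153, 3321 and 3223 CPM in the mesangial class, and its part in this ratio was not tested.

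In 4 places, a pair of the genes lies within 50 kb on the annotated genome (GENCODE M21). Wnt9b and Wnt3, 24.3 kb apart on chromosome 11, had 129 and 1 UMIs over all kept cells. Wnt6 and Wnt10a, 6.19 kb apart on chromosome 1, had 48 and 33, Wnt9a and Wnt3a, 16.2 kb apart on chromosome 11, had 68 and 1, and Wnt10b and Wnt1, 11.7 kb apart on chromosome 15, had 12 and 1. In 3 of these pairs 1 gene was thus at a single UMI.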

How the data were processed

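The deposited values are raw counts of UMIs per gene and cell, without normalisation, for barcodes already chosen by the authors, whose rule for that is not given in the sources used here. Per the submitters' processing notes, alignment was to mm10, and the tools were STAR 2.7.5a and Cell Ranger 6.1.2. The libraries held 44585342, 44942380 and 47522141 UMIs (male, female, female ERaKO) in 4244, 3555 and 3986 barcodes, and pairs of libraries shared 4 to 8 barcodes. Gene positions came from GENCODE M21, matched by gene ID.

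Cells with fewer than 500 genes or more than 25% mitochondrial UMIs were dropped. Doublets were scored with Scrublet in scanpy 1.11.5. Its automatic threshold called only 4 female cells, so a common score of 0.2 was set after this was seen, which removed 109, 72 and 93 cells. The kept 8572 cells were clustered (2000 variable genes, 30 components, 15 neighbours, Leiden resolution 1) with the Wnt pathway genes left out of the variable genes. Clusters were named from 17 marker lists. The score, a mean log2 level, had to reach 1, be 0.5 or more of the class's top score and exceed the next list by 0.75, with 3 markers 2-fold up and neither the 10 top genes nor the depth against the name. The limits were chosen with the clusters in view, and 5 clusters stayed unnamed. UMIs were summed per class and library. Ratio intervals are exact conditional Poisson intervals without the pseudocount of 1 CPM, share intervals are Clopper-Pearson and the floor for 0 is 3 counts. The ratio script was tested on simulated data. No cell had under 4000 UMIs, so thinning left none out.

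The genes and lists were chosen with earlier results of these data known. A gene was described at 20 UMIs over all libraries, and 10 CPM in at least 1 library, in a class of at least 30 cells. Every Wnt pathway gene past the threshold of a comparison was named with its counts. The 5 fixed lists of other pathway genes were secretion and receptor partners, other extracellular modulators, beta-catenin machinery, beta-catenin targets and planar polarity. One gene that fits the naming rule is not reported here. Alternatives were other scalings (edgeR 4.0.16 TMM, median ratio), pseudocount, UMI minimum, fold, mitochondrial limit, doublets, resolution, genes used for clustering, separate clustering and leaving out the top cell.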

Additional observations from a re-analysis of the deposited data

Results flagged for a closer look

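A pair of genes had ratios of opposite sign in different cell classes of the same library, past 1.5-fold on each side. With 1 library per group the differences were not tested. In the male against the female library, Sfrp2 had a log2 ratio of 0.61 in podocytes and -1.62 in parietal epithelial cells. In the female ERaKO against the female library it was -1.53 in parietal epithelial cells, and 2.18 in endothelial, 0.96 in smooth muscle and renin and 4.04 in proximal tubule cells. The last value rests on 45 UMIs against 0, so it depends on the pseudocount. In mesangial cells, which hold 82.8% of Sfrp2 UMIs, neither comparison passed 1.5-fold. Rspo3 had a log2 ratio of 0.63 in endothelial cells and -1.12 in smooth muscle and renin cells, female ERaKO against female.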

How the results depend on the processing

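No paired analysis was possible because each group is 1 library with no replicate numbers, and for the same reason no replicate could be left out. Of the counts of Wnt pathway genes past 1.5-fold under the alternatives, 112 stayed within 1.5 times the reported count and 51 did not. TMM scaling, median-ratio scaling and letting the Wnt pathway genes into the clustering moved none of them by more. The counts that moved follow, male against female first in each sentence. With a pseudocount of 5 CPM they were 0 in podocytes, 1 in endothelial and 1 in smooth muscle and renin cells, and 0 in podocytes and 2 in endothelial cells for female ERaKO against female. At 2-fold they were 0, 1 and 1 in podocytes, endothelial and smooth muscle and renin cells, and then 1, 2, 1, 1 and 3 in podocytes, parietal epithelial, endothelial, smooth muscle and renin and proximal tubule cells. With a minimum of 5 UMIs they were 10, 6, 5 and 9 in parietal epithelial, mesangial, smooth muscle and renin and proximal tubule cells, and then 7 in smooth muscle and renin cells. With a minimum of 50 UMIs they were 2, 0, 1 and 1 in those classes, and then 4, 0, 2 and 1. At most 10% mitochondrial UMIs gave 2, 0 and 2 in podocytes, endothelial and mesangial cells, and then 2 in mesangial cells. Keeping doublets gave 4 in smooth muscle and renin and 5 in proximal tubule cells, and then 3 in endothelial cells. Resolution 0.5 gave 9 in proximal tubule cells, and then 3 in endothelial cells. Resolution 2 gave 2, 2 and 2 in podocytes, parietal epithelial and mesangial cells, and then 3 in mesangial cells. Clustering each library separately gave 12 in parietal epithelial, 4 in endothelial, 5 in mesangial and 11 in proximal tubule cells, and then 12 and 8 in parietal epithelial and mesangial cells. Leaving out the cell with most UMIs of each gene gave 2, 1 and 0 in parietal epithelial, endothelial and mesangial cells, and then 3 and 4 in mesangial and proximal tubule cells. Podocytes without the cluster led by Cst12, an alternative chosen after seeing the data, gave 2 for male against female.

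The ratio of 12 gene and setting pairs changed sign. For male against female these were Sfrp2 in podocytes (-0.26, resolution 2), Dkk3 in podocytes (-0.43, without the cluster led by Cst12, which holds nearly all of it), Wnt8b in parietal epithelial cells (-0.30, 10% mitochondrial limit), Sfrp5 in parietal epithelial cells (0.81, resolution 2), Sfrp2 in endothelial cells (-0.14, 10% mitochondrial limit) and Fzd2 in mesangial cells (-1.62, libraries clustered separately). For female ERaKO against female they were Sfrp5 in parietal epithelial cells (0.59 with doublets kept, 2.36 at resolution 2), Fzd2 in endothelial cells (-0.15, doublets kept), Fzd2 in mesangial cells (-1.33, libraries clustered separately), and Dkk2 (-0.035) and Lrp5 (0.23) in proximal tubule cells at resolution 0.5. What caused these changes was not tested. The Dkk3 value rests on 10 male and 25 female UMIs. The highest named class changed in 11 cases, for 9 of the 27 described genes. With the 10% mitochondrial limit there were 7. Wnt8b (23.8 CPM, against 6.56 in podocytes), Frzb (19.2, against 3.81 in proximal tubule cells), Sfrp1 (57.4) and Wnt10a (3.19) were then highest in collecting duct principal cells, Fzd7 (54.8) in smooth muscle and renin cells, Fzd1 (39.9) in mesangial cells and Fzd5 (21.8) in podocytes, and thick ascending limb and intercalated cells gave no value. Sfrp5 moved to proximal tubule cells at resolution 0.5 (47.0 CPM) and to T and NK cells at resolution 2 (19.5), Lrp5 to endothelial cells with separate clustering (22.9, against 22.7 in mesangial cells), and Wnt8b to parietal epithelial cells (5.68, against 4.99) without the cluster led by Cst12. The 10% mitochondrial limit left too few proximal tubule cells to compare libraries, so ratios were not run there. Depth limits the ratios most in the female mesangial cells, where 1 CPM is 0.53 UMIs.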
